A study of Homo sapiens with 12 samples.

Results

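TXNIP, the arrestin-domain genes ARRDC1 to ARRDC4, the sugar-sensing transcription factors MLXIP (MondoA), MLXIPL (ChREBP) and MLX, and the transcription factor gene KLF10 were followed through the knockdown of 3 genes of citrate handling. The 9 genes were found by symbol through their Ensembl identifiers, 1 row each, among the 70116 rows of the count table. The filter on low counts was passed by 8 of them, which were tested among 16197 genes, and ARRDC4 was listed at 0 in every library. The cells were MiaPaCa-2, an established human pancreatic cancer line, transfected with a control small interfering RNA (siControl) or with one against SLC25A1 (the mitochondrial citrate carrier), ACLY (ATP citrate lyase) or ACO1 (cytosolic aconitase). Each of the 4 groups had 3 libraries of poly(A) RNA, 12 in all, and each knockdown was compared with siControl and with the other knockdowns. All groups are 1 cell line and all were transfected. The labels give no medium, glucose level or time of harvest, do not say how many siRNAs each target had, and do not say whether replicates were separate cultures, so the p-values measure the spread between these libraries only.

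MondoA and ChREBP are basic helix-loop-helix factors that bind DNA together with MLX at carbohydrate response elements, which consist of a pair of E-boxes. Both respond to hexose phosphates such as glucose 6-phosphate, and TXNIP and ARRDC4 are textbook MondoA targets. TXNIP binds thioredoxin and belongs, with the ARRDC proteins, to the alpha-arrestins, adaptors that bring membrane proteins to ubiquitin ligases of the NEDD4 family, and TXNIP also promotes uptake of the glucose transporter GLUT1 (SLC2A1) from the cell surface. KLF10, a zinc finger repressor induced by TGF-beta, is a further glucose-responsive target of the pathway.

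RefSeq promoter windows (250 bases before to 50 after a start, GRCh38.p14) were held for 8 of the 9 members, all but KLF10, and both strands of each were searched. A pair of E-boxes CACGTG with 5 bases between them occurred in none of the 11 windows of these 8 members and in 2 of all 35116 windows (0.0057%). A looser pair, CACGNG repeated after the same gap, where N is any base, includes the strict pair. It occurred in 1 member window, that of TXNIP, and in 20 of all windows (0.057%). Both boxes were taken in the same orientation, so looser pairs with a box inverted were not searched for. A single E-box CACGTG, which the strict pair contains, lay in the windows of ARRDC4 and MLX and in 7.26% of all windows. The 3 matches are shown as 30 bases on the gene's strand, because they are the places where sugar-sensing factors could be looked for; capitals mark the motif.
TXNIP: gatgtgCACGAGGGCAGCACGAGcctccgg
ARRDC4: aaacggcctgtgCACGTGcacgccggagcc
MLX: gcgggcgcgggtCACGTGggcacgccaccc
The TXNIP stretch is chr1:145996644-145996673 (minus strand), and its motif lies 88 to 72 bases before the start. The ARRDC4 stretch is chr15:97960481-97960510 (plus strand), 210 to 205 bases before the start for the motif, and the MLX stretch is chr17:42567038-42567067 (plus strand), with the motif 50 to 45 bases before the start. The TXNIP window also held 2 CCAAT boxes, the sequence bound by NF-Y, and 34.6% of all windows held at least 1 in either orientation. These matches are letters in a window and no measure of binding.

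Library totals ran from 24159424 to 43792811 counts. The targets checked the labels: SLC25A1, ACLY and ACO1 were at 8.78%, 7.25% and 3.75% of siControl in their own knockdowns. One library stood apart. Counts of siACO1 replicate 3 differed from those of its replicates with a chi-square per degree of freedom of 11.83 and 12.52. The 10 other pairs of replicates were at 2.31 to 5.85. The deviation of siACO1 replicate 3 from its replicates correlated with exon length across genes (Spearman's rho -0.24 over 15384 genes, which are not replicates). Values without this library are given with each call of a member in siACO1 against siControl. Member calls between siACO1 and another knockdown were kept without it, and their values without it are not given. Of the 7 marker genes of the cancer cells looked for, VIM, KRT8 and KRT18 were abundant in siControl (3561, 2278 and 1325 CPM). KRT19 and MUC1 stood at 88.5 and 20.5 CPM there. VIM is a mesenchymal gene and not an epithelial marker, and 24.4% of its exon bases overlap other genes. KRT8 and KRT18 were lower in siSLC25A1 (2011 and 1151 CPM) and in siACO1 (1280 and 774 CPM), and stood at 2414 and 1315 CPM in siACLY. In siSLC25A1, siACLY and siACO1, KRT19 stood at 121, 141 and 52.0 CPM and MUC1 at 14.4, 10.4 and 12.0 CPM. KRT7 and EPCAM stayed below 1 CPM in every library. The 12 acinar, islet, immune, fibroblast and endothelial markers were each below 1 CPM in every library, with 6 at 0 throughout. Zeros in this table need care: POLR2A and GTF2H1, subunits of RNA polymerase II and of TFIIH that dividing cells require, had at most 5 and 1 counts in any library, so a gene listed at or near 0 is not shown to be silent.

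TXNIP rose in all 3 knockdowns, 2.75-fold in siSLC25A1, 2.79-fold in siACLY and 1.98-fold in siACO1. In CPM, counts scaled to library size with the trimmed mean of M values, it stood at 14.4, 12.4 and 11.5 in the 3 siControl libraries. It stood at 34.8, 33.9 and 37.0 CPM in siSLC25A1, at 35.0, 35.3 and 36.9 in siACLY, and at 23.9, 24.4 and 27.7 in siACO1. Every knockdown library was above every control, and the siACO1 libraries lay between siControl and the other knockdowns without touching either. The means were 12.8 ± 1.47 CPM (SD, n = 3) in siControl, 35.2 ± 1.61 in siSLC25A1, 35.7 ± 0.990 in siACLY and 25.3 ± 2.09 in siACO1. In edgeR's quasi-likelihood test, with p-values adjusted over all genes tested, the log2 fold change against siControl was 1.46 in siSLC25A1 (SE 0.08, adjusted p 1.22e-14), 1.48 in siACLY (SE 0.08, adjusted p 3.8e-15) and 0.99 in siACO1 (SE 0.08, adjusted p 3.13e-11). Without siACO1 replicate 3 the last value was 0.91 (adjusted p 3.34e-12). The 3 comparisons share the control libraries. In bulk RNA a change in the share of cells with a transcript and a change in transcript per cell cannot be told apart.

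The size of the rise was uneven between knockdowns. TXNIP was higher in siSLC25A1 than in siACO1 by 0.47 on the log2 scale (SE 0.07, adjusted p 3.88e-06) and higher in siACLY than in siACO1 by 0.49 (SE 0.07, adjusted p 1.62e-06). Between siSLC25A1 and siACLY the difference was -0.02, with a 95% interval from -0.16 to 0.12 (adjusted p 0.86). Among the 16197 tested genes, TXNIP ranked 49 from the highest log2 fold change in siSLC25A1, 196 in siACLY and 459 in siACO1. The 20 genes with the looser pair in a promoter window included TXNIP, and 16 of them were tested: TXNIP had the highest log2 fold change of these in each knockdown, and the next highest was 0.46, 0.67 and 0.52 in siSLC25A1, siACLY and siACO1. Of the 16, 3 were called higher and 1 lower in siSLC25A1, 6 and 1 in siACLY, and 3 and 0 in siACO1, or 4, 7 and 3 called where 19.6%, 36.7% and 37.1% of all genes were. TXNIP (ENSG00000265972.6; chromosome 1, 145992435 to 145996600, minus strand, protein-coding) had no exon bases shared with another gene in GENCODE release 29 and none of its 31-base stretches in transcripts of other genes, and between 322 and 1558 reads supported each value.

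**Figure D1:**
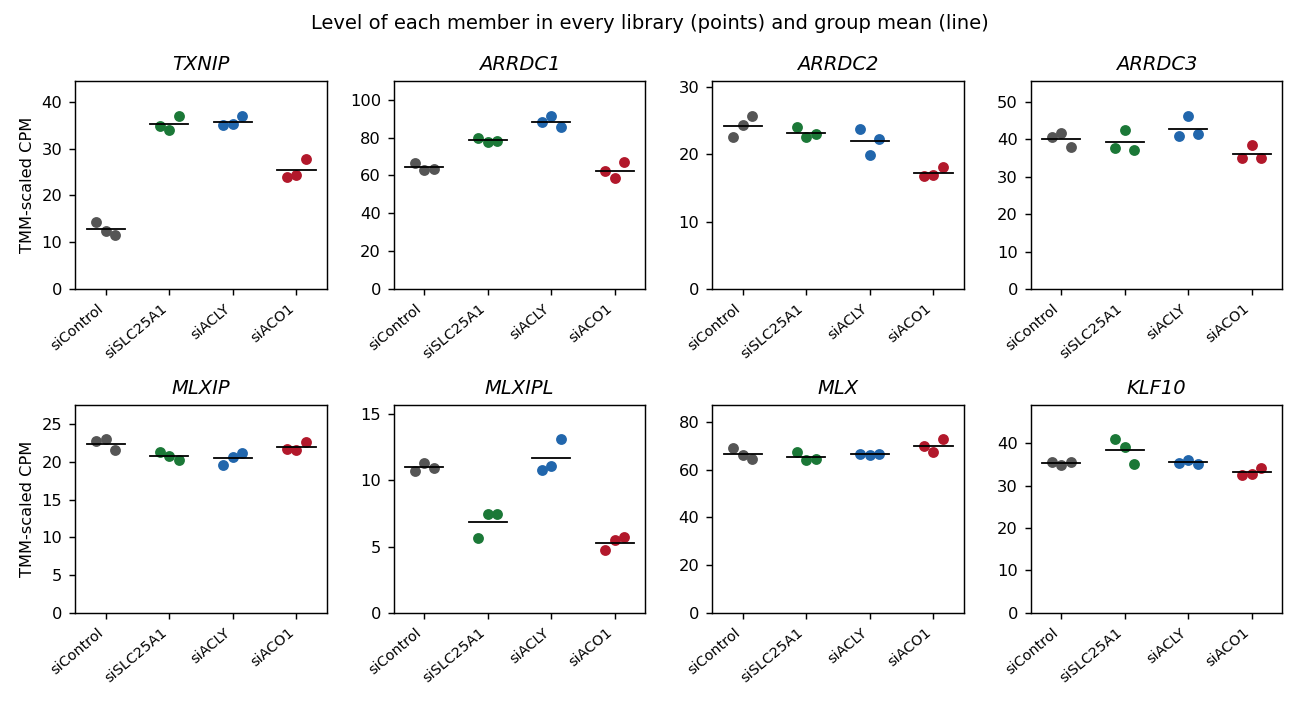
Level of the 8 tested members in TMM-scaled CPM (vertical axes, each starting at 0) in every library (points) of the 4 groups, with the group mean as a line. TXNIP is between 11.5 and 14.4 CPM in siControl and at least 23.9 CPM in every knockdown library, and MLXIPL is lower in siSLC25A1 and siACO1 but not in siACLY.

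Of the 8 tested members, 3 were called in siSLC25A1 (2 higher, 1 lower), where 19.6% of all tested genes were called (10.3% higher, 9.27% lower). In siACLY 2 were called, both higher, against 36.7% of all genes (18.4% higher, 18.3% lower), and in siACO1 3 were called (1 higher, 2 lower), against 37.1% (17.8% higher, 19.3% lower). The members' median log2 fold change was -0.03, 0.04 and -0.07 in the same order, and that of all tested genes was -0.004, 0.008 and 0.006. TXNIP was the 1 member called in all 3 comparisons with siControl. Ranges of the 3 knockdown and the 3 control libraries did not overlap for 4, 3 and 4 members, where 37.1%, 50.5% and 46.3% of all genes did not overlap.

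The other alpha-arrestins did not move as one. ARRDC1, whose protein drives the budding of small vesicles from the plasma membrane, stood at 66.8, 62.9 and 63.5 CPM in siControl, at 79.7, 77.7 and 78.1 in siSLC25A1, at 88.4, 91.6 and 85.4 in siACLY, and at 62.1, 58.5 and 67.1 in siACO1. The siSLC25A1 and siACLY libraries were all above the controls and did not overlap with each other, and the siACO1 libraries spanned the control range. ARRDC1 rose by 0.29 in siSLC25A1 (SE 0.05, adjusted p 9.85e-05) and by 0.46 in siACLY (SE 0.05, adjusted p 2.06e-08) on the log2 scale, and its value in siACO1 was -0.04 (95% interval -0.14 to 0.06, adjusted p 0.565). The log2 difference of siSLC25A1 from siACLY was -0.17 (adjusted p 0.00772), a call that was lost without siACLY replicate 2 (-0.14, adjusted p 0.0609), and both were higher than siACO1 (0.33 and 0.50, adjusted p 5.03e-06 and 2.56e-09). The gene lies on chromosome 9 (137605654 to 137615360, plus strand), and 5.5% of its exon bases overlap other genes.

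ARRDC2 fell in siACO1. Its levels were 22.6, 24.3 and 25.7 CPM in siControl, 24.1, 22.6 and 23.0 in siSLC25A1, 23.8, 19.9 and 22.2 in siACLY, and 16.8, 16.9 and 18.0 in siACO1. The siACO1 libraries were below every other library of the series, and the remaining groups overlapped. The log2 fold change was -0.49 in siACO1 (SE 0.07, adjusted p 5.14e-06), or 71.4% of siControl, and it was -0.52 (adjusted p 1.74e-06) without siACO1 replicate 3. In siSLC25A1 and siACLY the values were -0.06 and -0.13 (adjusted p 0.638 and 0.161). The differences of siSLC25A1 and siACLY from siACO1 were 0.43 and 0.36 (adjusted p 3.47e-05 and 0.000289). In siACO1, TXNIP and ARRDC2 were called in opposite directions.

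ARRDC3, an adaptor that brings membrane proteins such as integrin beta4 to NEDD4-family ligases, was not called against siControl. Its mean was 40.1 ± 1.88 CPM (SD, n = 3) in siControl, 39.2 ± 2.98 in siSLC25A1, 42.9 ± 3.02 in siACLY and 36.1 ± 1.94 in siACO1. The log2 fold changes were -0.03, 0.09 and -0.15 (adjusted p 0.767, 0.27 and 0.0628), and the last was past the threshold without siControl replicate 3, siSLC25A1 replicate 2 or siACO1 replicate 2 (between -0.20 and -0.15). ARRDC3 was higher in siACLY than in siACO1 by 0.24 (SE 0.06, adjusted p 0.00269), with no overlap between the libraries of these groups.

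ARRDC4 (ENSG00000140450.9; chromosome 15, 97960698 to 97973838, plus strand) had 0 counts in each of the 12 libraries. At these totals, 3 counts would be between 0.0685 and 0.124 CPM, a limit that covers counting error only and not reads lost in alignment or counting. Its exons overlap no other gene in GENCODE release 29.

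Among the sugar-sensing factors, MLXIPL changed and its relatives did not pass the test against siControl. MLXIPL encodes ChREBP, the glucose-responsive activator of glycolytic and lipogenic genes known chiefly from liver and fat. Its levels were 10.7, 11.3 and 11.0 CPM in siControl, 5.65, 7.49 and 7.46 in siSLC25A1, 10.8, 11.1 and 13.1 in siACLY, and 4.71, 5.49 and 5.71 in siACO1. All libraries of siSLC25A1 and siACO1 were below all those of siControl and siACLY, which overlapped with each other. MLXIPL fell by 0.69 in siSLC25A1 (SE 0.11, adjusted p 4.3e-05) and by 1.04 in siACO1 (SE 0.12, adjusted p 2.26e-08) on the log2 scale, to 62.1% and 48.5% of siControl. In siACLY the log2 fold change was 0.08 (95% interval -0.14 to 0.29, adjusted p 0.598).

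The differences between knockdowns were tested as well. The log2 difference of siSLC25A1 from siACLY was -0.76 (SE 0.11, adjusted p 4.33e-06), and siACLY was higher than siACO1 by 1.12 (SE 0.12, adjusted p 4.06e-09). Between siSLC25A1 and siACO1 it differed by 0.36 (SE 0.12, adjusted p 0.0215), but the libraries of these groups overlapped and the call was lost without siSLC25A1 replicate 2, siSLC25A1 replicate 3 or siACO1 replicate 1 (0.29 to 0.30, adjusted p 0.0966 to 0.103). Without siACO1 replicate 3 the log2 fold change against siControl in siACO1 was -1.10 (adjusted p 4.93e-09). Each value rested on 117 to 480 reads. The gene lies on chromosome 7 (73593194 to 73624543, minus strand), and 3.7% of its 31-base stretches occur in transcripts of other genes.

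MLXIP, which encodes MondoA, was at 22.4 ± 0.760 CPM (SD, n = 3) in siControl, 20.8 ± 0.558 in siSLC25A1, 20.5 ± 0.842 in siACLY and 22.0 ± 0.591 in siACO1. Its log2 fold changes were -0.11, -0.14 and -0.03 (adjusted p 0.272, 0.106 and 0.757). The 95% intervals ran from -0.24 to 0.03, from -0.27 to -0.0023 and from -0.16 to 0.10. The siSLC25A1 libraries (20.2 to 21.3 CPM) and siACLY libraries (19.6 to 21.2) were all below the controls (21.6 to 23.0). Ranges did not overlap for 37.1% and 50.5% of all genes in these comparisons. The siACO1 libraries overlapped the controls. MLX, the partner that both factors need to bind DNA, was at 66.6 ± 2.27 CPM in siControl and at 65.4 ± 1.85, 66.4 ± 0.328 and 70.1 ± 2.55 in siSLC25A1, siACLY and siACO1. Its log2 fold changes were -0.03, -0.01 and 0.07 (adjusted p 0.753, 0.941 and 0.246). With libraries scaled by their totals alone, the value of MLX in siACO1 was 0.12 (adjusted p 0.0407), and 18.1% of the exon bases of MLX overlap PSMC3IP on the other strand.

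KLF10 was not called against siControl. Its levels were 35.6, 34.9 and 35.7 CPM in siControl, 40.9, 39.2 and 35.1 in siSLC25A1, 35.4, 36.2 and 35.2 in siACLY, and 32.4, 32.8 and 34.2 in siACO1. The siSLC25A1 and siACLY libraries overlapped the controls, and the siACO1 libraries lay just below them. The log2 fold changes were 0.12, 0.01 and -0.09 (adjusted p 0.155, 0.941 and 0.232), and without siSLC25A1 replicate 3 the first was 0.18 (adjusted p 0.0445). KLF10 was higher in siSLC25A1 than in siACO1 by 0.21 (SE 0.06, adjusted p 0.00442).

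**Figure D2:**
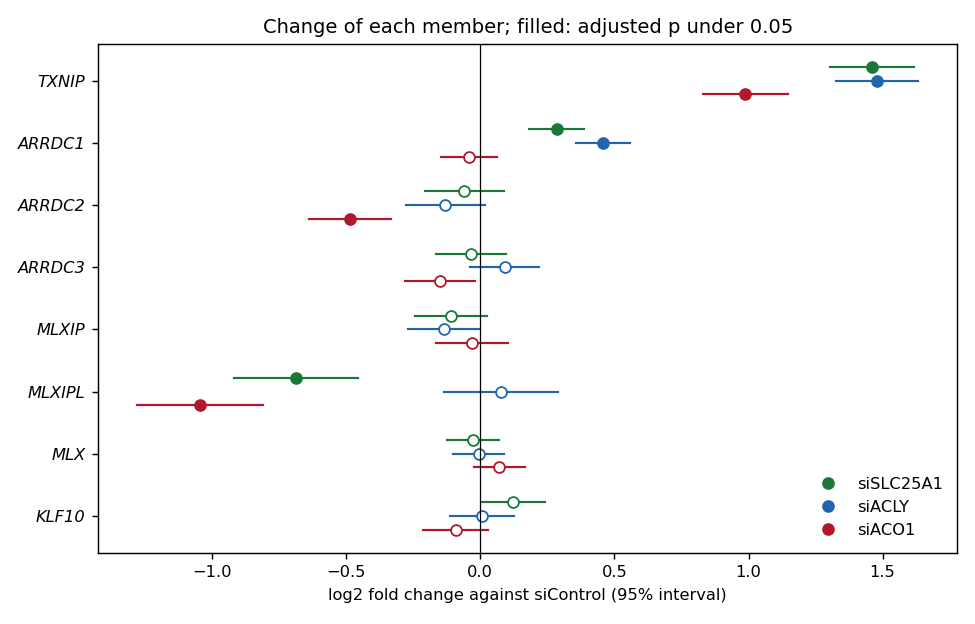
Log2 fold change of the 8 tested members against siControl (horizontal axis) in the 3 knockdowns (colours), with 95% intervals as bars; filled points have an adjusted p under 0.05. The 3 points of TXNIP lie between 0.99 and 1.48, those of MLXIP, MLX and KLF10 lie near 0 and are open, and MLXIPL is filled in siSLC25A1 and siACO1.

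Set against each other, the knockdowns differed in 2 members between siSLC25A1 and siACLY (ARRDC1 and MLXIPL, both lower in siSLC25A1), where 33.8% of all tested genes differed (17.5% higher, 16.3% lower). SiSLC25A1 and siACO1 differed in 5 members, TXNIP, ARRDC1, ARRDC2, MLXIPL and KLF10, all higher in siSLC25A1, against 42.1% of all genes (21.8% higher, 20.3% lower). SiACLY and siACO1 also differed in 5, TXNIP, ARRDC1, ARRDC2, ARRDC3 and MLXIPL, all higher in siACLY, against 42.1% (21.4% higher, 20.7% lower). Libraries did not overlap for 2 members between siSLC25A1 and siACLY, 6 between siSLC25A1 and siACO1, and all 8 between siACLY and siACO1, where 46.5%, 48% and 49% of all genes did not overlap.

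Per length, in RPKM, the CPM divided by exon length in kilobases, the order of the members shifted mainly with TXNIP and MLXIPL. At the top, MLX (16.45) and ARRDC1 (16.38) overlapped in siACO1, while ARRDC1 led without overlap in the other groups. In siControl ARRDC1 (16.9 RPKM) and MLX (15.6) led, followed by KLF10 (8.84), ARRDC3 (8.13), ARRDC2 (5.22), TXNIP (3.52), MLXIPL (2.28) and MLXIP (1.61), and no pair of neighbours in this order overlapped. TXNIP was the third in siSLC25A1 (9.72 RPKM), where it overlapped KLF10 (9.60), the third in siACLY (9.86), where it lay above KLF10 (8.88), and the fifth in siACO1 (6.99), where it overlapped ARRDC3 (7.33). MLXIPL was above MLXIP in siControl and siACLY (2.42 against 1.47 RPKM), overlapped it in siSLC25A1 and was below it in siACO1 (1.10 against 1.58). The lengths are those of all exons in GENCODE release 29. That release held 15384 of the 16197 tested genes, so it differs from the annotation behind the counts. The order between genes is therefore less certain than the changes within a gene.

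**Figure D3:**
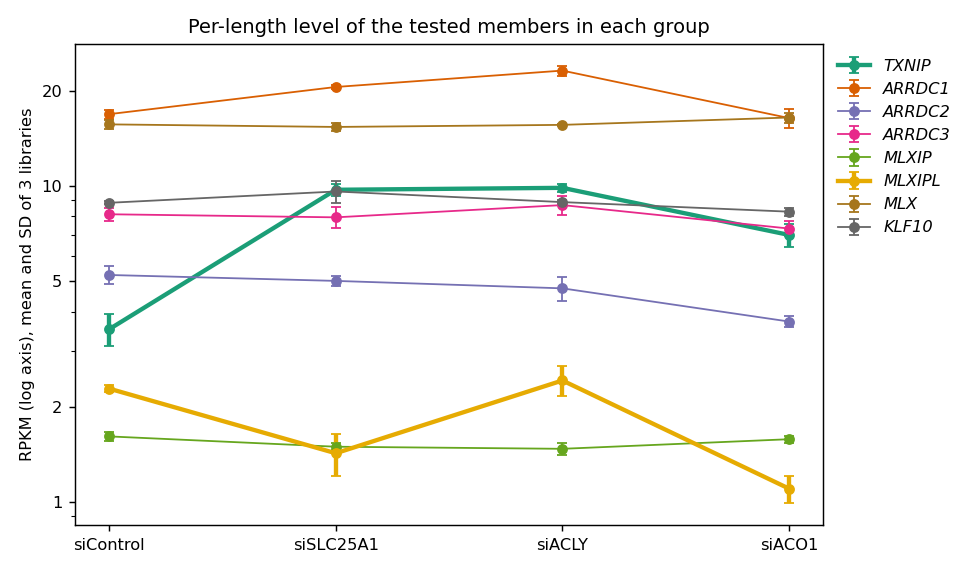
RPKM of the 8 tested members (vertical log axis, mean and SD of 3 libraries) in the 4 groups; lines join the points of 1 gene and carry no order in time. TXNIP goes from 3.52 RPKM in siControl to 9.72, 9.86 and 6.99 in the knockdowns and crosses ARRDC2, while MLXIPL falls below MLXIP in siACO1.

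The range between the highest and lowest group mean of log2 CPM was 1.46 for TXNIP, rank 163 among 16197 genes, and 1.07 for MLXIPL, rank 564. It was 0.50 for ARRDC1, 0.48 for ARRDC2, 0.24 for ARRDC3, 0.21 for KLF10, 0.13 for MLXIP and 0.10 for MLX. The genes most like TXNIP over the 4 group means, by the root mean square difference of centred log2 CPM among 10301 genes that reached 5 CPM in a group, were ARHGAP31 (0.21), RIPK4 (0.22), TMEM154 (0.24), AMPD3 (0.25) and SLC20A1 (0.27). ARHGAP31, a GTPase-activating protein for RAC1 and CDC42, was 1.77, 1.49 and 0.71 above its siControl mean in siSLC25A1, siACLY and siACO1, and AMPD3, which deaminates AMP, was 0.80, 1.15 and 0.39 above it. With 4 group means per gene, this likeness is a description of these groups only.

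Other genes of the pathway were taken in 8 lists. Their counts are read against the share of all tested genes called in siSLC25A1, siACLY and siACO1 (19.6%, 36.7% and 37.1%) and the medians of all tested genes (-0.004, 0.008 and 0.006). Every MLX and MAX partner and NEDD4-family ligase is given, and genes of the other lists named below with changes under 0.5 on the log2 scale were chosen after their values were seen. Genes that supply or use hexose phosphates were called in both directions in every knockdown. Of 19 tested, 3 were higher and 6 lower in siSLC25A1, 6 higher and 5 lower in siACLY, and 6 higher and 8 lower in siACO1, with medians of -0.04, 0.04 and -0.125. Among all genes 10.3% were higher and 9.27% lower in siSLC25A1, 18.4% and 18.3% in siACLY, and 17.8% and 19.3% in siACO1. The glucose transporter gene SLC2A1 was called higher in all 3 (0.24, 0.24 and 0.11, adjusted p 4.93e-05, 2.06e-05 and 0.0303), from 126 CPM in siControl. The call in siACO1 was lost without siControl replicate 3. In further settings given below, at most 1 of SLC2A1 and the integrin gene ITGB4 was called there. SLC2A3, which encodes GLUT3, rose by 1.30 in siACLY and by 0.79 in siACO1 (adjusted p 8.08e-12 and 3.85e-08) and was at -0.09 in siSLC25A1 (adjusted p 0.506). PFKFB2, a kinase and phosphatase that sets fructose 2,6-bisphosphate, rose by 0.70 in siACLY (adjusted p 1.37e-08).

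The hexokinase genes, whose products make glucose 6-phosphate, differed among themselves. HK2 was at 0.45 in siSLC25A1 (adjusted p 1.5e-08), 0.04 in siACLY (0.494) and -0.58 in siACO1 (3.74e-11). HK1 was at 0.06, 0.25 and 0.21 (adjusted p 0.363, 1.91e-05 and 0.000172). HKDC1, a hexokinase of low activity, fell by 0.75 in siSLC25A1 and by 1.45 in siACO1 (adjusted p 0.00124 and 1.2e-06) and was at 0.01 in siACLY (adjusted p 0.952), while MLXIPL was at -0.69, -1.04 and 0.08 in the same order; this pairing was chosen after the values were seen. PGM2, a phosphoglucomutase, fell by 0.94 in siACO1 (adjusted p 2.85e-12). GPI, which interconverts glucose and fructose 6-phosphate, was lower in all 3 (-0.23, -0.28 and -0.20).

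Genes reported as targets of MondoA or ChREBP were mostly lower where they were called, unlike TXNIP. The list had 23 genes, of which 13 passed the filter; HBP1 and LDHA were at or near 0 and gave no value. In siSLC25A1 1 was higher and 5 were lower, in siACLY 2 were higher and 4 lower, and in siACO1 1 was higher and 9 were lower, with medians of -0.17, -0.13 and -0.39, where 9.27%, 18.3% and 19.3% of all genes were lower. The 6 called in siACLY became 3 without siControl replicate 1 or siACLY replicate 1. SCD, the stearoyl-CoA desaturase, and TKT, transketolase, were called lower in all 3 knockdowns (SCD -0.32, -0.64 and -0.395; TKT -0.28, -0.29 and -0.28). In siACO1, the called falls included GPD1 (-1.66, from 1.93 to 0.590 CPM), RGS16 (-0.87), HK2 (-0.58) and ACACA (-0.66, a call lost without siControl replicate 2 or siACO1 replicate 1 or 3). RGS16, a regulator of G protein signalling, was at -0.62 in siSLC25A1 and 0.51 in siACLY, calls that were lost without siControl replicate 3, siSLC25A1 replicate 1 or 3 in the first and without siControl replicate 1 or 2 or siACLY replicate 1 or 3 in the second. ELOVL6, at 0.162 CPM in siControl, was at 1.44 in siACLY, a call lost without each siControl library or siACLY replicate 1, and without the last its value was 0.73 (adjusted p 0.443).

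**Figure D4:**
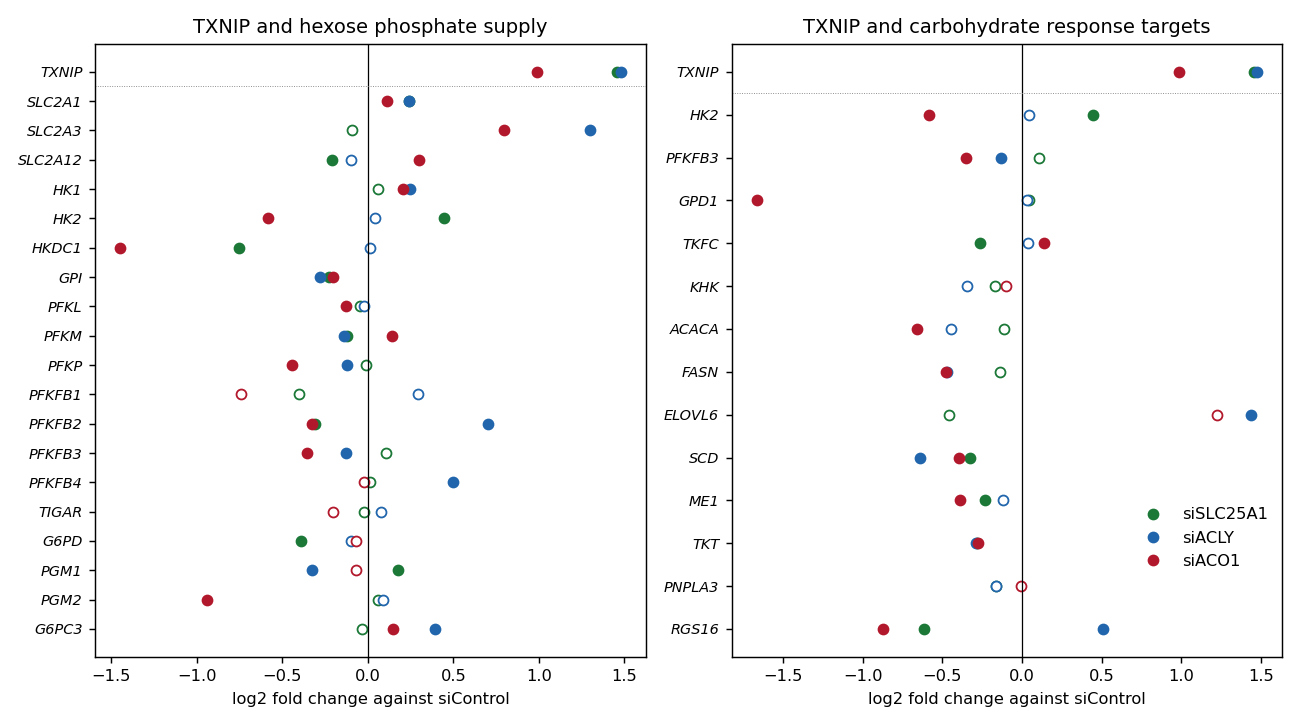
Log2 fold change against siControl (horizontal axes) in the 3 knockdowns (colours) for TXNIP and the tested genes of the hexose phosphate list (left) and the carbohydrate response list (right); filled points have an adjusted p under 0.05. TXNIP is to the right in all 3 knockdowns, while 9 of 13 carbohydrate response genes are filled to the left in siACO1.

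MLX also pairs with some of the MXD repressors and with MNT, which otherwise bind MAX. MXI1, an MXD repressor that binds MAX, fell in all 3 knockdowns (-0.51, -0.44 and -0.54, adjusted p 0.000166, 0.000306 and 2.45e-05). MXD1 rose in all 3 (0.31, 0.26 and 0.23, adjusted p 0.0126, 0.0196 and 0.0413), with its call in siACO1 lost in settings given below. MXD4 fell in siSLC25A1 (-0.36, adjusted p 0.00147), and MAX fell there by 0.44 (adjusted p 1.09e-06). MXD3 rose by 0.72 in siACO1 (adjusted p 1.46e-08), but 40.4% of its exon bases overlap other genes and its count is uncertain. MYC, which competes for the same E-boxes with MAX, was at 0.00, -0.01 and -0.04 (adjusted p 0.972, 0.936 and 0.5) from 306 CPM. MYCL rose by 0.85 in siACLY, and its call in siACO1 (-0.61, adjusted p 0.0441) was lost without each siControl library, siACLY replicate 1 or siACO1 replicate 1 or 3. Of the 9 tested, 1 was higher and 3 lower in siSLC25A1, 2 higher and 1 lower in siACLY, and 2 higher and 2 lower in siACO1. MGA was at 0.24, 0.03 and 0.07 (adjusted p 0.0745, 0.848 and 0.587), MNT at 0.08, 0.01 and 0.13 (adjusted p 0.4, 0.962 and 0.096), and MYCN was listed at 0 in every library. These 4, 3 and 4 called genes stand beside 19.6%, 36.7% and 37.1% of all genes. The last count was 2 without siControl replicate 2 or 3, siACLY replicate 1 or siACO1 replicate 1, and 2 with DESeq2. MXI1 and MXD3 kept their calls in siACO1 in these settings, and those of MXD1 and MYCL were lost.

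Thioredoxin, the protein that TXNIP binds, and its reductases were read from a list of 13 tested genes. TXN was at -0.13, -0.22 and -0.31 in siSLC25A1, siACLY and siACO1 and was called lower in the last 2 (adjusted p 0.0558, 0.000717 and 8.29e-06). TXNRD1, the cytosolic reductase, rose by 0.46 in siSLC25A1, was at 0.06 in siACLY and fell by 0.55 in siACO1 (adjusted p 2.68e-10, 0.25 and 2.19e-12). TXNRD3 rose by 0.70 in siACLY (adjusted p 6.47e-11). PRKAA1, a catalytic subunit of the kinase AMPK that marks TXNIP for degradation, was called higher in all 3 (0.14, 0.26 and 0.37), with an adjusted p of 0.0247 in siSLC25A1. PRKAA2, at 0.642 CPM in siControl, was at -1.14 in siACO1, a call lost without each siControl library and without siACO1 replicate 1 or 2. DDIT4, a TXNIP partner, was at 0.16, 0.48 and -0.02, with an adjusted p of 0.0484 in siSLC25A1 and 41.2% of its exon bases shared with an antisense gene. The list had 3 higher and 1 lower in siSLC25A1, 5 and 1 in siACLY, and 1 and 3 in siACO1, where 19.6%, 36.7% and 37.1% of all genes were called. The 4 called in siSLC25A1 became 2 without siControl replicate 2 or 3 or siSLC25A1 replicate 2.

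Of the 9 NEDD4-family ligase genes, 4 were higher and none lower in siSLC25A1 and in siACLY, and 2 were higher and 4 lower in siACO1, where 19.6%, 36.7% and 37.1% of all genes were called. NEDD4 was called higher in all 3 (0.36, 0.34 and 0.20). ITCH, the ligase known to degrade TXNIP, was at 0.11, -0.01 and 0.03 (adjusted p 0.251, 0.949 and 0.757). HECW1 rose by 0.55 in siSLC25A1 and by 1.04 in siACLY (adjusted p 2.47e-05 and 4.86e-11), HECW2 rose by 0.88 in siACLY, and SMURF2 was at 0.45, 0.18 and -0.28 (adjusted p 2.76e-09, 0.00105 and 3.38e-06). WWP1 was at 0.22, 0.15 and 0.21 (adjusted p 0.012, 0.0536 and 0.0078). NEDD4L, WWP2 and SMURF1 were called lower in siACO1 (-0.15, -0.17 and -0.18, adjusted p 0.0253, 0.00817 and 0.00318) and were between -0.14 and 0.10, not called, in the other knockdowns. Among genes of proteins handled by alpha-arrestins or bound by ARRDC1, ITGB4, which encodes integrin beta4, was called lower in all 3 (-0.43, -0.34 and -0.14), with the call in siACO1 lost without siControl replicate 3. At most 1 of SLC2A1 and ITGB4 was called in siACO1 without siControl replicate 1 or 2 or siACO1 replicate 3, or with library totals, no filter or a fit on the compared groups alone. TSG101, the ESCRT protein that ARRDC1 recruits, was at -0.04, 0.20 and 0.01 and was called in siACLY.

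Other genes with an arrestin fold include the beta-arrestins, which bind activated G protein-coupled receptors. ARRB1, encoding beta-arrestin 1, fell by 0.49 in siSLC25A1 and by 0.71 in siACLY (adjusted p 9.73e-06 and 6.39e-09) and was at 0.19 in siACO1 (adjusted p 0.0312). ARRB2 was at -0.20, -0.0018 and 0.37 (adjusted p 0.0153, 0.985 and 3.79e-06). Of 6 tested genes of this list 2 were lower in siSLC25A1, 2 were lower in siACLY and 2 were higher in siACO1, where 19.6%, 36.7% and 37.1% of all genes were called. The count was 1 in siSLC25A1 without siControl replicate 1 or 2 or siSLC25A1 replicate 2, and 1 in siACO1 without siControl replicate 1 or 2 or siACO1 replicate 1 or 2, and 1 there with DESeq2 or a fit on the compared groups alone. ARRDC5 had at most 2 counts in a library. Of the 6 tested relatives and co-repressors of KLF10, none was called in siSLC25A1 by edgeR or DESeq2 (1, KLF13, had an unadjusted p under 0.05 in edgeR, 0.0197), 1 was higher and 2 were lower in siACLY, and 3 were lower in siACO1, with KLF9 at 0.56 in siACLY (adjusted p 5.94e-05). The shares of all genes called were 19.6%, 36.7% and 37.1%.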

How the data were processed

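The authors deposited 1 table of raw gene counts for 12 RNA-seq libraries, 3 for each siRNA, and libraries were assigned to groups through the column names in the labels. The submitters' processing notes name CASAVA, FastQC, Trim Galore, STAR 2.7.0e and DESeq2, and the builds GRCh38 and GRCm39 without a role; the counting tool, its annotation and its use of strand are not given in the sources used here. Of the 70116 identifiers 89.42% matched a symbol.

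The counts were filtered with filterByExpr, scaled by the trimmed mean of M values and fitted with edgeR 4.0.16 (robust quasi-likelihood, R 4.3.3) over all 4 groups, with 8 residual degrees of freedom. P-values of the 6 comparisons were adjusted by Benjamini-Hochberg over all 16197 genes tested in each, and genes with an adjusted p under 0.05 were called. Totals of 24159424 to 43792811 counts set the precision, and the biological coefficient of variation was 4.89%. Coordinates, exon lengths and overlaps came from GENCODE release 29 (GRCh38), and promoter sequence from RefSeq. The script was tested on simulated data.

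The members and lists were chosen with earlier results of these data known. Named beside the members were the targets, list genes called with a log2 change of at least 0.5 (at most 4 per list and comparison), all MLX and MAX partners and NEDD4-family ligases, and the 5 genes most like TXNIP; names outside this rule were chosen after their values were seen. Alternatives were other scalings, other filters, DESeq2 1.42.0, fits on the compared groups only, a replicate block, and each library left out in turn. One gene of the lists is not reported here.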

Additional observations from a re-analysis of the deposited data

How the results depend on the processing

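TXNIP kept its direction and its call against siControl under all 20 alternatives, with log2 fold changes of 1.40 to 1.56 in siSLC25A1, 1.41 to 1.57 in siACLY and 0.91 to 1.08 in siACO1. MLXIPL likewise stayed called in siSLC25A1 (-0.76 to -0.56) and siACO1 (-1.10 to -0.97). Of all member values under the alternatives, 933 kept direction and call, 14 turned in sign, 9 gained and 4 lost the call. None of the values that turned was called. With library totals these were MLX in siACLY (0.038), ARRDC1 and MLXIP in siACO1 (0.007 and 0.017) and MLXIP between siSLC25A1 and siACLY (-0.012). With DESeq2 it was KLF10 in siACLY (-0.001), and with at least 10 counts in every library it was MLX in siACLY (0.007). With a library left out these were MLX (-0.033 to 0.019), KLF10 (-0.01 to 0.01) and MLXIPL (-0.013 to 0.132) in siACLY, ARRDC1 in siACO1 (-0.099 to 0.004), and TXNIP (-0.051 to 0.013) and MLXIP (-0.003 to 0.057) between siSLC25A1 and siACLY. Members called between siSLC25A1 and siACLY numbered 1 to 3 with a library left out, 1 of them without siACLY replicate 2. The cause was not tested. Same-numbered libraries did not deviate together across genes (r from -0.044 to 0.09 over 18 pairs). Pairs with different numbers were not set beside them and the labels state no pairing, so whether replicates were paired was not settled. With a replicate block 3270, 6038 and 6093 genes were called in siSLC25A1, siACLY and siACO1, against 3173, 5944 and 6008 without it. ARRDC3 in siACO1 was then past the threshold (-0.15, adjusted p 0.0257). Genes at or near 0 counts give no value at this depth.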
